A study of Mus musculus with 4 samples.

Results

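The clustered histone genes were taken as every feature whose symbol begins with Hist1h, Hist2h, Hist3h or Hist4h, which gave 42 of the 19465 features measured. They comprised 6 H1, 8 H2A, 12 H2B, 8 H3 and 8 H4 genes. Their RNA was measured by Visium-FFPE in coronal brain sections of male wild-type C57BL/6J pups at postnatal day 21. The dams received a folic acid (FA) diet of 2 mg/kg (MF, 2 sections) or 20 mg/kg (HF, 2 sections) from before mating until the end of lactation, so that the pups were exposed through the mother. Visium-FFPE hybridizes pairs of gene-specific probes to RNA in formalin-fixed tissue and counts ligated probes as unique molecular identifiers (UMIs) in spots, which are small areas of the section that can hold several cells. The probes do not need a poly(A) tail, and RNA without one can therefore be counted. Section totals of kept spots ranged from 34982061 UMIs in HF replicate 1 to 90096877 UMIs in MF replicate 1, so depth was unequal between the diets. To compare sections, CPM (the UMIs of a gene scaled to a common total for each section or area) and thinning of spots to 5000 UMIs were used. Spots with fewer than 5000 UMIs were left out of all thinned values. This kept 3589 of 3598 spots in MF replicate 1 and 3216 of 3314 in MF replicate 2. In HF replicate 1 it kept 2687 of 3197 spots, and in HF replicate 2 3218 of 3343.

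Core histones (H2A, H2B, H3 and H4) form the octamer around which DNA is wrapped, and the linker histone H1 binds where DNA enters and leaves it. The clustered genes, most of which lie without introns in a large cluster on chromosome 13, are known as the replication-dependent histone genes: their RNA rises sharply in S phase, when new chromatin must be packed. Their messenger RNA ends in a conserved stem-loop rather than a poly(A) tail, the stem-loop is bound by SLBP, and the RNA is cut downstream with the help of the U7 small nuclear RNA and degraded when DNA synthesis stops. Some clustered genes, among them several H1 and H2B genes, also give polyadenylated RNA in cells that have left the cycle. In the brain after birth, dividing cells are found mainly among oligodendrocyte progenitors, in the subventricular zone and in the dentate gyrus.

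The gene models of GENCODE vM21 place 30 members in the Hist1 cluster on chromosome 13, 9 in Hist2 on chromosome 3, 2 in Hist3 on chromosome 11 and 1 in Hist4 on chromosome 6 (GRCm38). vM21 holds 70 clustered histone genes in all, 67 of them coding, so genes without a feature here were not measured. A total of 40 members had 1 exon, and 2 members (Hist1h2bc and Hist1h2be) had 2. The coding sequences are close copies of each other: 24 of 42 members had a clustered gene over 95% identical to them, including Hist1h3c and Hist1h3b (98.5%) and Hist1h2bk and Hist1h2bc (98.1%), whereas Hist1h1c (83.0%), Hist1h1e (84.0%) and Hist1h1b (80.6%) were less like any other gene. The probe sequences were not used here, so the values of close copies are uncertain as to which copy was counted. Hist1h2be overlaps Hist1h1e on the same strand, and Hist3h2a lies inside Trim17 on the same strand.

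The stem-loop was searched for in the 150 bases after each stop codon as the letters NNNNCTNTTNAGNNNN on the sense strand, with at least 5 of 6 stem positions paired. It was found in 40 of 42 members (95.2%), all except Hist2h2be and Hist1h4a, against 142 of 21752 coding genes (0.653%), of which 61 were clustered histone genes. The sites below, read 5′ to 3′ from the GRCm38 genome with the stem-loop in capitals, are those of the members on which the results turn and of 2 H4 genes with another stem.
Hist1h1b: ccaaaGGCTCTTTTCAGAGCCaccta
Hist1h1c: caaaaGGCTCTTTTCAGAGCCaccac
Hist1h2bc: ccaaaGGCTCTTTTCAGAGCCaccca
Hist1h2bk: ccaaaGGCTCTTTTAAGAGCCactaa
Hist1h3b: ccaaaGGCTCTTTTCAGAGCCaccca
Hist1h3c: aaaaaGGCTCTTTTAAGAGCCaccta
Hist1h4h: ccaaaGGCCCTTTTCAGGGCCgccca
Hist4h4: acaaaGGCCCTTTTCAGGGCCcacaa
A single stem-loop, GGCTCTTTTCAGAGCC, was shared by 25 members, and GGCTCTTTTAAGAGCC by 7. The stem beginning GGCCC was found in 7 members, all of them H4 genes. The stem-loop sat between 25 and 55 bases after the stop codon in the genes shown: 25 bases in Hist1h1c and Hist1h3c, 30 in Hist1h3b, 31 in Hist1h1b, 33 in Hist1h2bk, 35 in Hist1h2bc and 55 in Hist4h4. The annotated transcript continued well past it in some members, by 8246 bases in Hist1h2bc (chr13:23684199-23692908, plus strand), 840 in Hist1h1c (chr13:23738808-23740367, plus strand), 1153 in Hist1h1e (chr13:23620629-23622558, minus strand) and 2445 in Hist4h4 (chr6:136801553-136804415, minus strand). It ended 74 bases past the stem-loop in Hist1h3c (chr13:23744973-23745602, minus strand), 51 in Hist1h3b (chr13:23752267-23752886, plus strand) and 30 in Hist1h2bk (chr13:22035870-22036345, plus strand), and before it in the model of Hist1h1b (chr13:21779883-21780625, minus strand). In all, 20 members had over 200 annotated bases after the stop codon.

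Promoters of 37 members were matched in RefSeq (GRCm38.p6), and the 250 bases before the start were searched on both strands. TATAAA was present in 20 of 37 (54.1%, against 12.4% of 32851 promoters), CCAAT in 31 (83.8%, against 33.9%) and the octamer ATGCAAAT, known to bind POU-domain factors in H2B promoters, in 10 (27.0%, against 1.60%). The 10 with the octamer were 5 H2A and 5 H2B genes, and none of the H1, H3 or H4 genes had it. The 150 bases upstream of 2 H1 and 2 H2B members show the contrast, with these 3 motifs in capitals in either orientation. They are Hist1h1b at chr13:21780626-21780775 on the minus strand, Hist1h1e at chr13:23622559-23622708 on the minus strand, Hist1h2bk at chr13:22035671-22035820 on the plus strand and Hist1h2bb at chr13:23746584-23746733 on the plus strand.
Hist1h1b: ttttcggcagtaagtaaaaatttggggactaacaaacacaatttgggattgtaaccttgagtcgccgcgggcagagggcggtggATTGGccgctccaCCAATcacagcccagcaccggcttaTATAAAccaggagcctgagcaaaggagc
Hist1h1e: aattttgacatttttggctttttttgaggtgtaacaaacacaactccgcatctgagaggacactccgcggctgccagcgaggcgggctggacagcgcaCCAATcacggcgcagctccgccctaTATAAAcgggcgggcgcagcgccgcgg
Hist1h2bk: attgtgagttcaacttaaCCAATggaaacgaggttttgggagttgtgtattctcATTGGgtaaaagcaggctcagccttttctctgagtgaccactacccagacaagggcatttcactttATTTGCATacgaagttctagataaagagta
Hist1h2bb: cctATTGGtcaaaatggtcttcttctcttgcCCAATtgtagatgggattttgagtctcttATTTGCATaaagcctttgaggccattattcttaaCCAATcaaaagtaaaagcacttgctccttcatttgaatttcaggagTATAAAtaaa
The H1 windows hold a CCAAT box shortly before a TATA box, and the H2B windows hold the octamer. CCAAT boxes are in the H2B windows as well, and a TATA box is in that of Hist1h2bb. Of the 3 motifs only the octamer sets both H2B windows apart from the H1 windows. The match of letters is a description of these windows and not a measured binding site.

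Histone RNA was counted throughout the sections. The 42 members together gave 80162 and 38492 UMIs in the MF sections (replicates 1 and 2) and 27423 and 37493 UMIs in the HF sections (replicates 1 and 2). As a level this was 890, 907, 784 and 882 CPM, of which HF replicate 1 was the lowest. At least 1 UMI of a member was found in 98.4% to 99.9% of spots at full depth and in 97.4% to 98.3% of spots thinned to 5000 UMIs. Of the members, 41 had at least 1 UMI, 25 had at least 100 UMIs in every section, and 2 had fewer than 3 UMIs in every section. Those last were Hist1h2aa, with 0 UMIs, which allows up to 0.0333 CPM in the deepest section by counting error, and Hist1h2ba, with 1 UMI in all. Both encode histones known from the testis, as does Hist1h1t, which had 13 UMIs over the 4 sections. The 3 members with the most UMIs held 45.6% to 55.0% of member UMIs, and the top 10 held 83.0% to 85.9%.

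The number of probe pairs per gene is unknown, so CPM was compared between sections and areas of 1 gene and not between genes. Of the 10 members with the most UMIs, the linker histone gene Hist1h1c had 211 and 212 CPM in the MF sections and 138 and 187 CPM in the HF sections, each given with replicate 1 first. Both HF sections were below both MF sections, and HF replicate 1 was the lowest by far. The H1 gene Hist1h1e had 114, 108, 92.3 and 116 CPM in the same order, with overlapping groups, and Hist1h1d had 35.9, 36.3, 35.2 and 44.2 CPM, where only HF replicate 2 stood apart. Among the H2B genes, Hist1h2bc had 164, 178, 127 and 143 CPM, both HF sections being the lower ones. Hist2h2bb went the other way, with 75.3, 75.1, 77.6 and 93.9 CPM. Hist3h2ba had 32.3, 29.8, 29.99 and 32.9 CPM and Hist1h2bb had 22.4, 26.0, 29.4 and 25.3 CPM, with overlap of the groups in both genes. The H2A gene Hist3h2a had 46.8, 52.0, 57.2 and 47.8 CPM, the H3 gene Hist1h3d had 31.8, 32.6, 30.7 and 30.1 CPM, and the H4 gene Hist1h4h had 30.4, 28.0, 32.6 and 30.1 CPM. Of these last 3 genes, only the groups of Hist1h3d did not overlap, and its HF sections were the lower ones by a small margin.

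**Figure D1:**
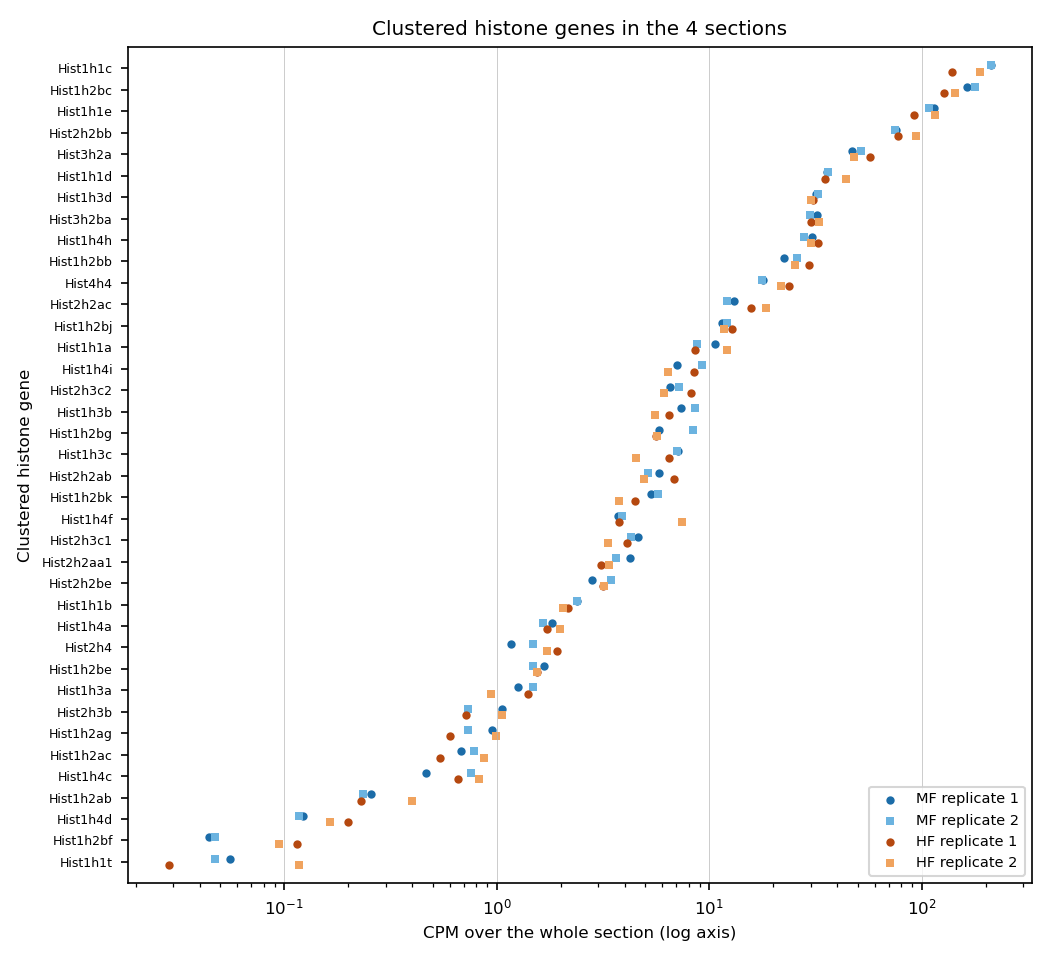
Level (CPM, log axis) of the clustered histone genes that had a UMI in all 4 sections, with a point per section coloured by maternal diet. For Hist1h1c HF replicate 1 lies at 138 CPM against 187 to 212 CPM in the other sections.

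By class, the 6 H1 genes summed to 374, 367, 276 and 362 CPM in MF replicates 1 and 2 and HF replicates 1 and 2. The sum was lowest in HF replicate 1, and the other HF section lay close to the MF sections. The H2B genes summed to 321, 341, 292 and 322 CPM and the H3 genes to 59.8, 61.9, 58.0 and 51.7 CPM. For H2A the sums were 71.9, 74.7, 84.2 and 77.0 CPM and for H4 62.7, 62.8, 73.3 and 70.4 CPM. Both HF sections were above both MF sections for H2A and for H4 and below them for H1 and for H3, whereas the H2B sums overlapped. Of all 18966 features with a UMI, 19.3% had both HF sections higher and 16.8% had both lower. The class sums were not tested.

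The comparison of HF with MF asks whether a high-FA maternal diet went with other histone RNA levels in the pups. With UMIs summed per section, 0 of 35 members that passed the filter on low counts were called by edgeR's quasi-likelihood test (Benjamini-Hochberg adjusted p under 0.05 and at least 1.2-fold), and 0.0% of all 14971 features tested were called. At an unadjusted p under 0.05, 6 of 35 members passed, against 6.81% of all features. DESeq2 called 0 of 41 members as well, with 5 at an unadjusted p under 0.05. The log2 HF/MF ratios of the members ran from -0.44 to 0.58, with 18 above 0 and 17 below, and their median of 0.01 was near that of all features (0.00). In tests on simulated counts over 14941 features, 87.5% of genes changed 2-fold were recovered, and 63% of those changed 1.5-fold over 14930 features. The simulated counts gave genes of like level the same spread and held no shift of a whole section. These shares therefore hold for that setting and may be lower in the real sections.

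The lowest unadjusted p was that of Hist4h4, an H4 gene outside the large clusters. It had 18.0, 17.7, 23.8 and 21.7 CPM in MF replicates 1 and 2 and HF replicates 1 and 2, with both HF sections higher (log2 ratio 0.34, edgeR adjusted p = 0.696). Hist1h1c was at -0.38 ± 0.15 (SE) with an edgeR adjusted p of 0.705, and Hist1h2bc at -0.35 ± 0.09 with 0.696. Hist1h2bk was at -0.44 (5.34, 5.73, 4.46 and 3.76 CPM) and Hist1h3b at -0.42 (7.37, 8.53, 6.43 and 5.53 CPM), each with an adjusted p of 0.696. Hist1h4f was at 0.58, where HF replicate 2 alone was high (3.71, 3.87, 3.77 and 7.48 CPM). The sections of the 2 diets did not overlap in 16 members, with HF higher in 6 and lower in 10. Over all 18966 features with a UMI the shares were 19.3% higher and 16.8% lower.

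Leaving out an HF section leaves 1 in that group, which is then assumed to vary like the MF pair, and calls then rose over all features and not among the members alone. Without HF replicate 1, 7 members were called (Hist2h2ac, Hist2h2bb, Hist1h4f and Hist1h1d higher, and Hist1h2bk, Hist1h3b and Hist1h3c lower), against 7.68% of all features. Without HF replicate 2, 4 members were called (Hist4h4 higher, and Hist1h1c, Hist1h1e and Hist1h2bc lower), against 5.55%. Leaving out MF replicate 1 or MF replicate 2 gave 0 calls among the members (0.0% and 0.0066% of all features). HF replicate 1 was also the shallowest section, with a median of 9286 UMIs per spot against 11831 to 23543.5 in the others. In spots thinned to 5000 UMIs, Hist1h1c had a UMI in 63.1%, 62.3%, 47.5% and 59.5% of spots of MF replicates 1 and 2 and HF replicates 1 and 2. The part of depth in these values was not tested.

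Spots were assigned to areas by Leiden clusters built without the clustered histone genes and named from area markers, as WM for white matter, VS for the ventricular system, HP for hippocampus, CTX for cortex, STR for striatum, HY for hypothalamus and TH for thalamus. WM, marked by myelin genes such as Mbp and Mobp, held 306, 316, 234 and 341 spots in MF replicates 1 and 2 and HF replicates 1 and 2. Sums over an area cannot tell more cells of a type from more RNA per cell. Each area was then compared with the mean of the others, with section as a block, and 30 members passed the filter while 12 did not.

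In WM the largest number of members was higher than elsewhere. There 16 of 30 members tested were higher and 1 was lower than in the other areas, against 18.6% higher and 15.3% lower of all 13770 features. The median log2 ratio was 0.36 for the members and -0.02 for all features. With scaling to library size alone the split over all features moved to 14.98% higher and 22.6% lower, and 12 members were then higher and 1 lower. The summed level of all 42 members in WM was 1073 to 1296 CPM over the 4 sections, above the 727 to 790 CPM of CTX in every section. VS, with 974 to 1233 CPM, overlapped with WM.

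Among the H3 genes, which encode the replicative H3 proteins, Hist1h3c had the largest ratio. It had 22.5, 23.6, 17.8 and 10.9 CPM in WM of MF replicates 1 and 2 and HF replicates 1 and 2, and 3.04, 2.82, 2.19 and 1.77 CPM in CTX. Each WM value was several times its CTX value, and HF replicate 2 was the lowest in both (log2 WM/others 1.89 ± 0.14, edgeR adjusted p = 5.2e-14). Hist1h3b, its near copy, had 20.1, 19.6, 27.9 and 14.1 CPM in WM and 3.16, 5.15, 2.92 and 1.21 CPM in CTX (1.68 ± 0.16, edgeR adjusted p = 7.1e-11). In Hist2h3c1 WM had 9.31, 10.9, 9.49 and 6.70 CPM and the ratio was 1.26 ± 0.15. The sections of WM and CTX did not overlap in any of these 3 genes.

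The H2B and H1 genes followed. Hist1h2bg had 12.6, 18.7, 13.6 and 14.1 CPM in WM and 3.49, 5.76, 2.63 and 2.14 CPM in CTX (log2 WM/others 1.39 ± 0.14). Hist1h1b, an H1 gene known from dividing cells, had 5.07, 4.61, 5.34 and 4.96 CPM in WM and 1.62, 2.45, 1.32 and 0.839 CPM in CTX (1.28 ± 0.21, edgeR adjusted p = 3.1e-06). The sections of WM lay above those of CTX in both genes, and for Hist1h1b they differed little among themselves. Members with more UMIs differed by less: Hist1h2bc had 262, 324, 221 and 235 CPM in WM against 115, 131, 92.7 and 95.6 CPM in CTX (0.85), and Hist1h1c had 348, 375, 203 and 250 CPM against 171, 170, 129 and 156 CPM (0.73). The WM values of Hist1h1c were lower in both HF sections than in both MF sections. The only member lower in WM was Hist4h4, with 13.7, 14.98, 20.2 and 17.6 CPM (-0.40), and it was not called in thinned spots.

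By histone class, 5 of 6 H3 genes tested were higher in WM (median log2 ratio 1.06), 6 of 9 H2B genes (0.82) and 4 of 5 H1 genes (0.36). None of 4 H2A genes was higher, and of 6 H4 genes 1 was higher and 1 lower. The length annotated after the stop codon did not divide them: of the members with over 200 bases, 8 of 14 tested were higher and 1 lower in WM (median 0.38), and of the others 8 of 16 were higher (0.36). Detection in thinned spots gave the same order of areas for Hist1h3c, with a UMI in 6.86%, 6.73%, 7.87% and 5.90% of WM spots and in 1.43%, 1.53%, 0.768% and 0.911% of CTX spots.

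**Figure D2:**
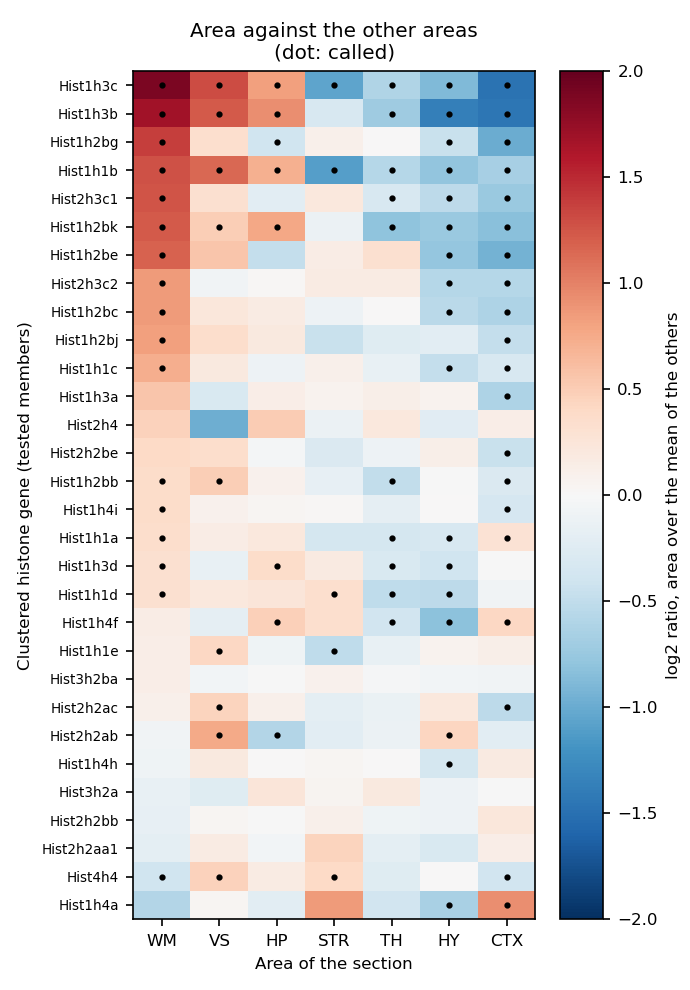
Log2 ratio of each area to the mean of the others for the 30 clustered histone genes tested, where red is higher, blue is lower, and dots mark genes called at an adjusted p under 0.05 and at least 1.2-fold. The WM column is mostly red with 16 genes called higher, and the CTX column mostly blue with 17 called lower.

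In VS, named from markers of the choroid plexus, the ependyma and the medial habenula, a group of neurons beside the third ventricle, 9 members were higher and 0 lower, against 20.4% higher and 19.7% lower of all features. Library size alone gave 28.0% higher and 11.9% lower over all features, and 16 members higher. That scaling moved the median log2 ratio of all features in VS from -0.03 to 0.09 and that of the members from 0.22 to 0.34. Hist1h3c had 16.2, 25.0, 13.9 and 6.73 CPM in MF replicates 1 and 2 and HF replicates 1 and 2 (log2 VS/others 1.31 ± 0.16), and Hist1h3b had 16.7, 31.5, 11.7 and 9.13 CPM (1.23 ± 0.18). Both genes were highest in MF replicate 2, and their HF sections were below their MF sections. Hist1h1b (1.15 ± 0.22) had 4.03 to 6.02 CPM, and the H2A gene Hist2h2ab, with 6.25 to 14.8 CPM, was at 0.76 ± 0.15. Hist1h2bk passed the threshold narrowly in VS (0.50 ± 0.21, edgeR adjusted p = 0.046), and was not called with coarser clusters or without MF replicate 1, MF replicate 2 or HF replicate 2.

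VS was not of 1 kind. A cluster led by habenula markers such as Gpr151 and Pou4f1 held 73, 59, 66 and 35 of its spots in MF replicates 1 and 2 and HF replicates 1 and 2, and clusters led by choroid plexus or ependymal markers such as Ttr and Ccdc153 held 76, 55, 51 and 69. In the habenula cluster Hist1h3c had 3.07, 3.40, 2.10 and 4.09 CPM, and in the rest of VS 29.8, 50.8, 34.9 and 8.16 CPM. Every section was higher in the choroid plexus and ependymal spots, and the HF and MF sections overlapped there. For Hist1h3b the values were 4.10, 3.40, 3.50 and 5.46 CPM in the habenula cluster and 29.8, 65.1, 26.1 and 11.1 CPM in the rest. Hist2h2ab went the other way, with 12.3, 15.3, 20.3 and 12.3 CPM in the habenula cluster and 6.03, 4.07, 4.98 and 2.97 CPM in the rest. All 42 members summed to 871 to 991 CPM in the habenula cluster and to 1156 to 1561 CPM in the rest of VS. With the habenula cluster left out, a choice made after seeing the data, 16 members were higher and 1 lower in VS (23.7% and 22.1% of all features). The log2 ratio was then 2.29 for Hist1h3c, 2.16 for Hist1h3b, 1.68 for Hist1h1b, 1.30 for Hist1h2bk and -0.20 for Hist2h2ab, of which only Hist2h2ab was not called. In WM 11 members were then higher (14.7% of all features).

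In HP 6 members were higher and 2 lower (15.1% and 18.0% of all features). Hist1h3b was at 0.94 ± 0.17, Hist1h3c at 0.83 ± 0.15, Hist1h2bk at 0.77 ± 0.18 and Hist1h1b at 0.70 ± 0.21, whereas Hist2h2ab was lower (-0.59 ± 0.16). In thinned spots 3 of 22 members tested were higher (12.4% of all features), and Hist1h3c at 0.55 was not among them. Hist1h1b was not called without HF replicate 2 (0.52). Within HP these levels were uneven. Spots named for the dentate gyrus (DG) had 20.6, 10.1, 27.8 and 22.8 CPM of Hist1h3c in MF replicates 1 and 2 and HF replicates 1 and 2. Spots named for the CA fields had 4.34, 7.03, 2.13 and 2.71 CPM. For Hist1h3b the DG values were 23.2, 12.8, 22.4 and 27.1 CPM and the CA values 6.88, 12.4, 6.39 and 4.40 CPM. DG was above CA in every section for both genes, though by little for Hist1h3b in MF replicate 2, where DG was lowest. Hist1h2bk had 16.6, 10.1, 17.6 and 17.8 CPM in DG, and all 42 members summed to a mean of 1142 CPM in DG and 807 CPM in CA. The difference between DG and CA was not tested across features, and DG held 56 to 83 spots per section. CA was itself mixed. Most of its spots, 593, were of a cluster with a median of 0.704 times the median UMIs of a section's spots. The other CA clusters, of 114 and 101 spots, were at 2.185 and 1.921, and DG was at 1.915. The part of this mixture in the difference between DG and CA was not tested.

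**Figure D3:**
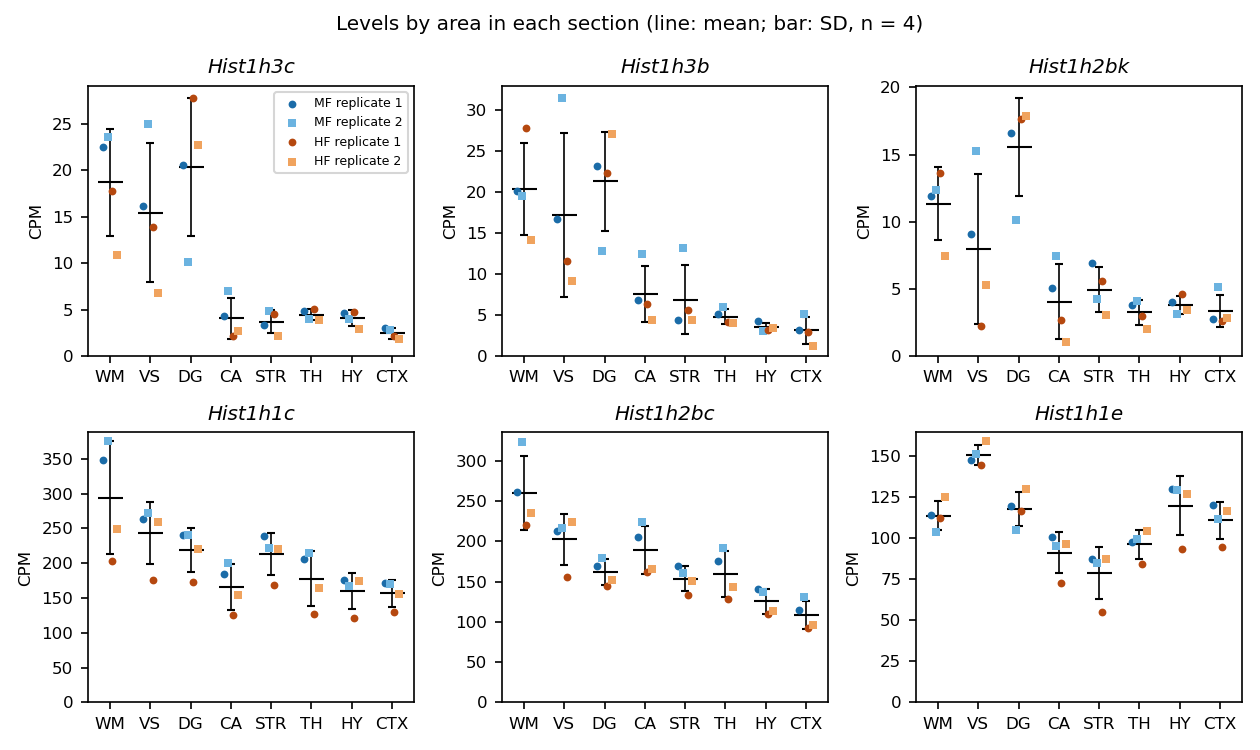
Levels (CPM) of 6 clustered histone genes by area, with points for the 4 sections, the mean and its SD (n = 4). The means of Hist1h3c and Hist1h3b are high in WM, VS and DG and low in CTX, while Hist1h1e varies less, with its lowest point at 55.0 CPM in STR of HF replicate 1.

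In CTX 3 members were higher and 17 lower, against 19.1% and 24.4% of all features (14.4% and 30.5% with library size alone, where 2 members were higher and 18 lower). Hist1h3c was at -1.48 ± 0.16, Hist1h3b at -1.45 ± 0.18, Hist1h2bg at -0.99 ± 0.14 and Hist1h2be at -0.94 ± 0.25. The H4 gene Hist1h4a, one of the 2 members without a stem-loop match, was higher at 0.94 ± 0.19, with 2.33, 2.94, 3.802 and 2.89 CPM in CTX and 1.51, 0.864, 0.593 and 0.992 CPM in WM. Its CTX sections were all above its WM sections, the reverse of Hist1h3c, but it had too few UMIs to be tested in thinned spots. There 0 of 22 members tested were higher in CTX (18.4% of all features) and 12 were lower (22.5%).

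In HY 1 member was higher and 16 were lower (17.6% and 19.9% of all features, or 25.7% and 13.3% with library size alone, where 2 members were higher and 13 lower and the median of all features moved from -0.02 to 0.08). Hist1h3b was at -1.36 ± 0.20, Hist1h3c at -0.88 ± 0.16, Hist1h4f at -0.82 ± 0.17, Hist1h1b at -0.80 ± 0.22 and Hist1h2be at -0.77 ± 0.27. In TH 0 members were higher and 10 lower (15.7% and 20.4%), from -0.81 ± 0.18 for Hist1h2bk over -0.71 for Hist1h3b, -0.60 for Hist1h3c and -0.57 for Hist1h1b to -0.50 ± 0.06 for Hist1h1d among the leading 5. In STR 2 members were higher and 3 lower (11.4% and 10.9%): Hist4h4 (0.40 ± 0.09) and Hist1h1d (0.34 ± 0.08) were higher, and Hist1h1b (-1.10 ± 0.38), Hist1h3c (-1.06 ± 0.27) and Hist1h1e (-0.50 ± 0.06) were lower. In thinned spots 0 of 22 members tested were higher (10.5% of all features) and 1 was lower (8.04%) in STR. Hist1h1b there was not called without MF replicate 1, HF replicate 1 or HF replicate 2, nor in TH without MF replicate 1, and Hist1h2be in HY was not called without MF replicate 2 or HF replicate 1. The H1 genes differed among themselves in STR. Hist1h1d had 47.7, 49.3, 44.9 and 58.3 CPM there, and Hist1h1e had 87.5, 84.7, 55.0 and 87.4 CPM against 148, 151, 144 and 159 CPM in VS.

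Across areas, 13 of the 30 members tested were higher in WM and also lower in CTX, 4 were higher in WM, VS and HP alike, and 5 were called in no area. With VS taken whole, the highest ratio was in WM for 16 members, in VS for 6, in HP for 4 and in CTX and STR for 2 each. The lowest was in CTX for 14 members. These counts across areas were not taken over all features, so they describe the members alone.

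Genes of DNA replication and division moved in the same areas. Of 22 tested genes of S phase and division, 12 were higher and 2 lower in WM (median log2 ratio 0.60), with the proliferation marker Mki67 at 1.19 and the topoisomerase gene Top2a at 1.83. The 2 lower genes were the cyclin E genes Ccne1 (-0.44) and Ccne2 (-0.44). In HP 8 were higher and 2 lower, in VS 8 and 1, and in CTX 2 and 14. All 8 genes listed for oligodendrocyte progenitors were higher in WM (median 1.38, with Olig1 1.63, Gpr17 1.46, Sox10 1.78 and Pdgfra 0.64) and lower in CTX. WM was itself named from myelin genes, and whether the listed genes mark progenitors alone there was not tested. Of the 8 progenitor genes, 0 were higher and 7 lower in HP (median -0.51), and 2 were higher and 0 lower in VS (0.12). Of 8 markers of young neurons 6 were higher and 1 was lower in HP (median 1.18). Of 9 markers of vessels and blood cells 5 were higher and 0 lower in WM (median 0.35). The part of these cells in the histone levels was not tested.

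Histone genes outside the clusters and the factors that handle histone RNA moved less. Of 11 variant histone genes tested, 2 were higher and 0 lower in WM (median 0.17): H1f0, a linker histone of resting cells, at 0.58 and H2afj at 0.34. H3f3b, which encodes the replacement histone H3.3, was at 0.26 and H2afz at -0.23, and neither reached 1.2-fold. Of 17 genes for histone RNA factors, 3 were higher and 2 lower in WM (median -0.01). Npat, a coactivator of histone gene transcription at the cluster loci, was at 0.79 ± 0.09, and Slbp, which encodes the stem-loop binding protein, was lower at -0.34 ± 0.12, as was Lsm11 of the U7 particle at -0.36 ± 0.10. Npat, Slbp and Lsm11 were named after their values were seen. Of 16 histone chaperone genes, 3 were higher (Nap1l4 0.28, Asf1a 0.33, Nasp 0.42) and 1 was lower (Rbbp7 -0.38).

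Spots were next described by whether they held RNA of dividing cells. At 5000 UMIs per spot, at least 1 UMI of Mki67 or Top2a was found in 84, 67, 68 and 61 spots of MF replicates 1 and 2 and HF replicates 1 and 2, which was 1.90% to 2.53% of spots. In WM the share was 3.83% to 10.1%, and in VS 3.85% to 10.3%. In these spots Hist1h3c had 33.3, 65.7, 47.1 and 32.8 CPM, against 5.71, 6.10, 5.27 and 3.74 CPM in the other spots. It was higher in all 4 sections, with a mean ratio of 8.59 that rested on 62 UMIs. Hist1h1b (16.8 against 2.03 CPM, from 23 UMIs), Hist1h3b (43.7 against 5.63) and Hist1h2bk (21.2 against 4.58) were likewise higher in all 4 sections. Hist1h1c (ratio 1.53) and Hist1h2bc (1.46) differed by less, Hist1h1e was at 1.18, and Hist3h2a was at 0.939 with 1 of 4 sections higher.

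The same contrast was taken within areas, since these spots are unevenly spread. Outside WM, VS and HP, Hist1h3c had 18.4 CPM in spots with a division UMI and 3.62 CPM in the others, and Hist1h3b had 21.6 and 3.84 CPM, both higher in 4 of 4 sections. Within WM, Hist1h3c had 48.1 and 14.4 CPM, again higher in 4 of 4 sections. Hist1h3b, by contrast, had 15.9 and 17.3 CPM within WM and was higher in 1 of 4 sections, from only 5 UMIs. These values are descriptions of spots of the same sections, and no test was made.

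**Figure D4:**
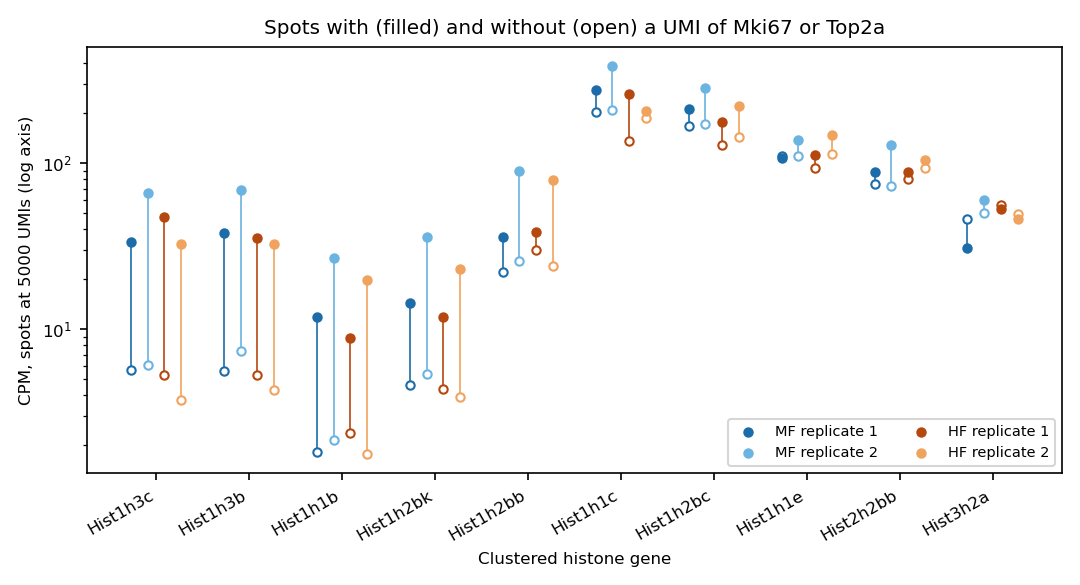
Level (CPM, log axis, spots thinned to 5000 UMIs) of 10 clustered histone genes in spots with (filled points) and without (open points) a UMI of Mki67 or Top2a, joined by a line for each of the 4 sections. Over the sections Hist1h3c has a mean of 44.7 CPM with and 5.20 CPM without such a UMI, and Hist3h2a 47.4 and 50.4 CPM.

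Moran's I measures whether neighbouring spots have similar values, from near 0 for a scattered gene towards 1 for one with sharp areas, and was deposited for each section. Most members had a lower I than the median feature. Their median I was 0.0113, 0.00367, 0.00645 and 0.00707 in MF replicates 1 and 2 and HF replicates 1 and 2, below the 0.0166, 0.0113, 0.0146 and 0.0104 of all features listed. The members were not matched with other features on UMIs, and I was near 0 for members with few UMIs. The part of low counts in this difference was not tested. Of the 38 to 41 members listed per section, 13 to 17 were above the median of all features, and 0 to 2 were among the top 10% of features.

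Hist1h2bc had the highest mean I of the members, with 0.193, 0.132, 0.0698 and 0.128, so that 6.34% to 14.5% of features were higher. Hist1h1c followed with 0.184, 0.145, 0.0519 and 0.0560, and its HF sections were both below its MF sections. Hist1h3b had 0.0891, 0.0584, 0.0460 and 0.0330 and Hist1h3c had 0.0824, 0.0422, 0.0401 and 0.0276, both highest in the deepest section, MF replicate 1. Since depth differed between sections, Moran's I was also computed over adjacent spots, at full depth and from spots thinned to 5000 UMIs. This score differs from the deposited one, so its thinned values compare only with its own full-depth values. At full depth Hist1h2bc had 0.154, 0.102, 0.107 and 0.0952, and Hist1h1c had 0.117, 0.109, 0.105 and 0.0298. In thinned spots Hist1h2bc had 0.0584, 0.0662, 0.0571 and 0.0691, with no section apart, and Hist1h1c had 0.0250, 0.0677, 0.0129 and 0.0153. The HF sections of Hist1h1c were below its MF sections both times, but at full depth HF replicate 1 was close to them. With 2 sections per diet no exact permutation test over sections could reach the threshold.

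Within areas, HF was again compared with MF. No member was called in any area by edgeR, where the share of all features called was 0.159% in CTX, 0.185% in HP, 0.0% in TH and HY, 0.0785% in STR, 0.465% in VS and 0.00803% in WM. The numbers of members with an unadjusted p under 0.05 were 7 of 29 in CTX (8.23% of all features), 6 of 26 in HP (8.57%), 7 of 30 in TH (7.22%), 3 of 28 in HY (6.14%), 1 of 22 in STR (7.14%), 4 of 25 in VS (8.23%) and 3 of 27 in WM (4.71%). DESeq2 called 0 members in each area. The areas did not hold the same tissue in every section: an HY cluster led by Agrp and Pomc had 237, 144, 118 and 3 spots in MF replicates 1 and 2 and HF replicates 1 and 2, a TH cluster led by Gbx2 had 238, 142, 14 and 219, and another TH cluster, led by Calb2, had 114, 176, 378 and 99. The tissue sampled and the diet cannot be told apart there. Without that HY cluster, or in VS without the habenula cluster, 0 members were called as well. The lowest adjusted p was that of Hist1h2bk in VS, with 9.05 and 15.3 CPM in the MF sections and 2.24 and 5.29 CPM in the HF sections (log2 HF/MF -1.58, edgeR adjusted p = 0.201). In a part of the same spots, those outside the habenula cluster, it had 14.5, 28.5, 3.73 and 6.68 CPM, the HF sections being the lower ones. These levels rest on few UMIs. Over all sections, thinned VS spots with a UMI of Mki67 or Top2a held 7 UMIs of Hist1h2bk, and the other thinned VS spots held 19. Hist1h3b in VS was at -1.07 (0.268), Hist1h2bc in CTX at -0.36 (0.211), Hist4h4 in CTX at 0.54 (0.247) and Hist1h1c in WM at -0.69 (0.321).

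Leaving out an HF section again raised the calls over all features, whose share is given beside each count. Without HF replicate 1, 5 members were called in CTX (6.25%), 5 in TH (7.4%), 3 in HY (4.91%), 2 in HP (5.39%), 2 in VS (5.11%), 2 in WM (1.15%) and 1 in STR (1.55%). Without HF replicate 2, 3 members were called in CTX (1.27%), 3 in TH (9.79%), 3 in VS (2.07%), 3 in WM (0.402%), 2 in HP (1.06%), 2 in HY (3.14%) and 0 in STR (0.226%). Leaving out an MF section gave 0 members in every area, and 0.0% to 0.756% of all features. Hist1h1c was among the genes called lower without HF replicate 2 in each of these 6 areas. The difference between diets was itself not called as different between areas in any of 31 members (0.0294% of all features called, edgeR F test). At an unadjusted p under 0.05 there were 3 members (6.55% of all features), led by Hist1h1c with an adjusted p of 0.194. Leaving out an HF section leaves 1 in that group, and calls of this kind then rose over all features. Of the other gene lists, 0 genes were called between HF and MF over the whole section, and by area the only calls were among oligodendrocyte progenitor markers in VS.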

How the data were processed

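Sections were probed with the Visium-FFPE kit, and per the labels and the study's methods the authors aligned probe reads to mm10 with Space Ranger. The deposited matrices hold raw UMI counts per spot, with no normalization, and the deposited score is Moran's I per feature, as Space Ranger gives it. The p-values beside that score were not used.

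The study's minimum of 500 UMIs and 250 genes per spot was applied, and 18 of 13470 spots fell below it. Totals were 34982061 to 90096877 UMIs per section. For areas, 2000 variable genes, 30 principal components and Leiden clustering at resolution 1 were used (leidenalg 0.10.2, igraph 0.11.9, scikit-learn 1.9.0). This gave 25 clusters, named from area markers among their 50 leading genes. A total of 4 clusters stayed unnamed, and 138 features, the clustered histone genes among them, were kept out. The study's hand-made names and histology were not used. A spot holds several cells, and no doublet caller was run. The other sections shared 2796 to 3110 spot barcodes with MF replicate 1, since a barcode marks a position on the slide design.

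UMIs were summed per section, or per section and area, and tested with edgeR 4.0.16 (R 4.3.3; TMM, filterByExpr), with Benjamini-Hochberg adjustment over all features tested. The study tested single spots with a rank sum test, which was run as an alternative, as was DESeq2 1.42.0. Scripts were tested on simulated data. Intervals and the limit that a count of 0 allows (3 counts) cover counting error only. Nothing in the labels ties the sections to litters, so p-values measure the spread between these sections. The labels do not say what a replicate number marks, and the main fits did not use the numbers to pair sections. Members and gene lists were chosen with earlier results of these data known. Values in every section are given for the 10 members with the highest mean CPM, and for areas the 5 with the largest log2 ratio among those called. Of the other gene lists up to 4 examples with the highest CPM were to be named, and all further genes named were chosen after their values were seen. Gene positions came from GENCODE vM21 (GRCm38), in which all 42 members were matched by identifier, and promoters came from RefSeq (GRCm38.p6).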

Additional observations from a re-analysis of the deposited data

Results flagged for a closer look

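A check for a section that stands apart from the other 3 was made for 35 pairs of an area and a clustered histone gene, and 1 pair was picked out. Chance picks out about 1 in 20. In STR, Hist1h1e had 55.0 CPM in HF replicate 1, against 84.7 to 87.5 CPM in the other sections.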

How the results depend on the processing

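Of the counts and summaries recomputed, 193 stayed within 1.5 times or 1 SD of the reported value and 61 moved. For HF against MF, where 0 members were called over the whole section and in each area, leaving out each section in turn gave 0 to 7 members over the whole section, 0 to 5 in CTX and TH, 0 to 2 in HP, 0 to 3 in HY, VS and WM and 0 to 1 in STR. Without the filter on low counts 2 members were called in CTX, TH and VS and 1 in WM. Over all features 126 of 17604 were then called in CTX, 139 of 17149 in TH, 226 of 16443 in VS and 31 of 16513 in WM. The rank sum test over single spots, which takes spots as replicates, called 5 members over the whole section (2.88% of all features), 4 in CTX (4.8%), 2 in HP (2.9%), TH (3.03%), HY (2.9%) and WM (2.78%) and 1 in STR (1.8%) and VS (0.339%). With thinned spots it called 3 over the whole section (1.39%), 2 in TH (0.524%) and 1 in WM (0.17%). On leaving out an HF section, which leaves 1 in that group, calls of a diet difference between areas rose over all features.

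Against the other areas, thinning left 22 members tested, with 0 higher in CTX, 3 in HP, 0 in HY and 0 in STR. Over all features 18.4%, 12.4%, 14.9% and 10.5% were higher there. Lower were 1 in HP, 10 in HY, 1 in STR and 0 in WM, against 11.3%, 19.9%, 8.04% and 12.8% of all features. Leiden resolution 0.5 gave 1 lower in HP (18.4% of all features) and 1 in VS (19.8%). Library size alone gave 2 higher in HY (25.7%) and 16 in VS (28.0%). Leaving out each section gave 1 to 2 lower in HP, 0 to 2 higher in HY and 0 to 1 lower in VS. Over all features the shares were 15.6% to 17.9%, 16.1% to 17.9% and 17.8% to 19.2%. In STR it gave 2 to 4 higher and 1 to 3 lower, against 10.5% to 11.1% and 8.91% to 9.66% of all features. In VS without its habenula cluster, chosen after seeing the data, 16 were higher and 1 was lower (23.7% and 22.1% of all features). Hist2h2ab turned to -0.2005 there. HY without its uneven cluster, likewise chosen after seeing the data, gave 12 lower in HY (18.2% of all features). The cause was not tested. Median Moran's I over the members computed over adjacent spots was 0.0196, and the median share of spots with a UMI was 2.23% in thinned spots.

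Of the single members, 428 values kept their direction and side of the threshold, 9 passed it only in the alternative, 16 no longer passed it and 7 changed sign. Beside Hist2h2ab in VS, these were log2 HF/MF ratios near 0. On leaving out each section, Hist1h1e ran from -0.293 to 0.063, Hist3h2a from -0.0396 to 0.191, Hist1h1d from -0.0585 to 0.295 and Hist3h2ba from -0.0781 to 0.0832, and Hist3h2ba was at -0.0011 in thinned spots.

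MF replicate 1 and HF replicate 1 deviated from their group means with a correlation of -0.165 over 14971 features. With 2 sections per diet this rests on 1 pair of sections, so it cannot show whether the numbers pair the sections. With replicate number as a block 1 member was called in CTX, 1 in TH and 2 in VS. Over all features 87 of 13185, 47 of 13413 and 126 of 12263 were called there. The crossed pairing, which was chosen after seeing the data, gave 2 members in TH, 3 in VS and 1 in WM. Over all features it called 130 of 13413, 218 of 12263 and 34 of 12461 there. Both pairings called 0 members over the whole section, and 0 and 11 of 14971 features.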
